A study of Homo sapiens with 8 samples.

Results

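Intronless protein-coding genes, whose transcripts carry a message in 1 exon and so pass through no splicing step, were followed across 4 groups of Panc10.05 libraries. They were taken as the autosomal protein-coding genes of GENCODE release 44 in which every annotated transcript has 1 exon and selected on a mean level of at least 1 CPM (counts scaled to the gene reads of a library) over the 8 libraries, the measured value that chose them. Histone genes and the heat shock genes HSPA1A and HSPA1B, 8 genes that met the other criteria, were left out. The annotation held 843 such genes, 816 of them were listed in the count tables, and 115 reached the level. Of the 701 below it, 493 had no read in any library. The tables listed 60675 genes in all. The level was set over all libraries, so 5 members had a mean under 1 CPM in at least 1 group: NOG, ARL14, IFNE, TMEM158 and TMEM81. Just above the threshold stood TMEM81 at 1.13, TMEM158 at 1.17, IFNE at 1.19 and EIF5AL1 at 1.25 CPM, and just below it EBLN2 at 0.855, CCDC96 at 0.829, PANO1 at 0.790 and PABPC3 at 0.763 CPM.

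Panc10.05 is a human pancreatic cancer cell line. Polyadenylated RNA was sequenced from parental cells without drug, parental cells given 2 µM indisulam for 18 h, and an indisulam-resistant culture obtained by raising the drug concentration stepwise, either kept on 2 µM indisulam or taken off it for a week. Each group had 2 libraries, described by the study as technical replicates, so every p-value here measures only the spread between such libraries, and a difference between lines is a difference between 1 parental and 1 resistant culture. The protocol text of the labels speaks of A549, a lung line, although every sample is titled Panc10.05, and the titles were followed. The lung markers NKX2-1 and SFTPB had no read in any library, while the epithelial markers EPCAM, KRT7, KRT8, KRT18, KRT19 and CDH1 were all above 168 CPM. The ductal markers CLDN18, LGALS4, TFF1 and S100P were at or near 0 and MUC1 had a median of 10.0 CPM. These marker levels were not compared with A549 libraries, so they do not decide between the 2 lines.

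Indisulam joins the splicing cofactor RBM39 to the ubiquitin ligase receptor DCAF15, after which RBM39 is degraded and splicing of many genes goes wrong. A gene without introns makes its mRNA without the spliceosome, although it still needs capping, cleavage, export and, for most, a poly(A) tail. Many such genes arose when an mRNA was copied back into the genome, and others are short regulators such as SOX and FOX factors, frizzled receptors and claudins.

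The origin by copying is visible in the sequence of HNRNPA1L2, a member on chromosome 13, beside its spliced parent HNRNPA1, an RNA-binding splicing regulator. The 60 coding bases shown lie on both sides of a junction between exons of HNRNPA1, 30 on each side, and capitals mark the bases that differ between the sequences.
HNRNPA1: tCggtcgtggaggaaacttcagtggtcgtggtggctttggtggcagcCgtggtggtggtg
HNRNPA1L2: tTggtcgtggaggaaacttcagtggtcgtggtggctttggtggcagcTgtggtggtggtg
In HNRNPA1 they come from chr12:54282636-54282665 and chr12:54282800-54282829 (GRCh38, plus strand), with an intron of 134 bases between, and in HNRNPA1L2 from the unbroken stretch chr13:52643139-52643198 (plus strand). EIF5AL1, a copy of the translation factor gene EIF5A, has no differing base in the corresponding 60 coding bases.
EIF5A: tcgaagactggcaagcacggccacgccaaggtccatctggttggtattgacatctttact
EIF5AL1: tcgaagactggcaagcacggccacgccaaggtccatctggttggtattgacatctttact
These bases lie at chr17:7309771-7309800 and chr17:7311018-7311047 in EIF5A, around an intron of 1217 bases, and at chr10:79512785-79512844 in EIF5AL1, all on the plus strand. The transcripts are 1343 bases long for HNRNPA1L2 and 3744 for HNRNPA1, and 3908 for EIF5AL1 and 1264 for EIF5A. Over the aligned stretch of each pair the copies matched their parents at 1320 of 1340 bases for HNRNPA1L2 and 1187 of 1211 bases for EIF5AL1. Reads of such stretches can be assigned to either gene, so the values of HNRNPA1L2, EIF5AL1, TTC30A, TTC30B and KRTAP2-3, the 5 members with near-identical transcript sequence in another gene, are uncertain. In addition 56 members overlap another annotated gene, 16 of them on the same strand and 45 on the opposite strand, and 59 overlap none. The strand setting of the count is not given in the sources used here, so reads of a member and of a gene overlapping it on either strand may not have been told apart.

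The promoters of 4 members whose levels differed between groups are shown next, as the 250 bases before the RefSeq start site, with capitals marking matches on either strand to the CRE (TGACGTCA), the AP-1 site (TGANTCA), the TATA box (TATAAA), the CCAAT box (CCAAT) and the GC box (GGGCGG). SOX4 and KCTD12 were higher in the resistant line, FOXQ1 was higher there but lower on the drug, and RHOB changed in opposite directions in the 2 lines.
SOX4: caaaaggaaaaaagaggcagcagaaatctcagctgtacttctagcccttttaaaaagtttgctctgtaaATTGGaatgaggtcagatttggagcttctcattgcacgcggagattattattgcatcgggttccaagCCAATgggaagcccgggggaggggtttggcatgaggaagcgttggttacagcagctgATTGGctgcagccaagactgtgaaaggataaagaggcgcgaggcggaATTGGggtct
KCTD12: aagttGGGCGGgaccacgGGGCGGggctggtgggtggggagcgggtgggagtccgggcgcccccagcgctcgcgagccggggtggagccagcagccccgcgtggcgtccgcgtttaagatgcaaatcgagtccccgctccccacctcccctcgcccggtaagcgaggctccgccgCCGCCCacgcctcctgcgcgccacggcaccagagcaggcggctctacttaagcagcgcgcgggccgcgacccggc
FOXQ1: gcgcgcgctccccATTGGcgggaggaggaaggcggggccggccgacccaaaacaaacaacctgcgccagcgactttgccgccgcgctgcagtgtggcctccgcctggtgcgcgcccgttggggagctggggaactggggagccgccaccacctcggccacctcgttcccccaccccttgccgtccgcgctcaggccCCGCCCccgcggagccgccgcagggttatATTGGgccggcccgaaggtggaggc
RHOB: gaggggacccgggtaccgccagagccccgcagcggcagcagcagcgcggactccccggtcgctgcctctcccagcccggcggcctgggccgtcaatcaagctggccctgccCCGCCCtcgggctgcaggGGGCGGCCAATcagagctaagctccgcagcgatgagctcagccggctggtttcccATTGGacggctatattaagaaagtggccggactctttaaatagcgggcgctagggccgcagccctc
They lie at chr6:21593501-21593750 (plus strand), chr13:76886406-76886655 (minus strand), chr6:1311848-1312097 (plus strand) and chr2:20446824-20447073 (plus strand) of GRCh38.p14. SOX4 held 4 CCAAT boxes and no GC box, KCTD12 3 GC boxes and no CCAAT box, FOXQ1 2 CCAAT boxes and 1 GC box, and RHOB 2 of each, whereas none of the 4 held a CRE, an AP-1 site or a TATA box in these letters. The table of RefSeq promoters matched 87 members. GC boxes stood in 71.3% of member promoters and 42.3% of all 27305 promoters, CCAAT boxes in 43.7% and 33.0%, TATA boxes in 8.05% and 11.1%, AP-1 sites in 4.6% and 6.6%, and CREs in 3.45% and 1.77%. The median GC content was 65.2% for member promoters and 58.0% for all, and these shares are a description of letters and not of bound factors.

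The libraries held 65266253 to 108002436 reads assigned to genes, and members took 0.393% to 0.428% of them. The smallest count of any member in any library was 44, and median counts per member ran from 1142 to 1983 reads. Between the libraries of a group the median absolute difference of a member was 0.04 to 0.05 on the log2 scale. The mitochondrial share of gene reads was 4.19% to 4.33% in parental untreated, 2.24% to 2.61% in parental indisulam, 3.003% to 3.45% in resistant untreated and 3.52% to 3.84% in resistant indisulam libraries, and the share of reads falling on no gene was 5.81% to 5.94%, 4.51% to 4.58%, 4.43% to 5.11% and 5.78% to 5.85%. The summed level of the 11 ductal and epithelial markers was 6327 to 6516 CPM in parental and 10814 to 12246 CPM in resistant libraries. These values move with the groups, and their part in the results below was not tested. RBM39 mRNA was higher on the drug in both lines, by 1.11 ± 0.03 (SE) log2 units in parental and 0.94 ± 0.03 in resistant cells.

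Levels below are CPM scaled by the trimmed mean of M values (TMM), a factor for each library that assumes most genes do not change. A gene was called higher or lower when its Benjamini-Hochberg adjusted p from edgeR's quasi-likelihood test, fitted over 16661 genes, was under 0.05. Per kilobase of transcript the abundant members included PCBP1 (an RNA-binding protein, 204 CPM per kb over the 8 libraries), SFN (the 14-3-3 sigma protein, 143), SF3B5 (a small subunit of the spliceosomal SF3b complex, 78.1) and RRS1 (a ribosome assembly factor, 62.5). In all, 82 members had a mean of 10 CPM or more and 33 lay between 1 and 10 CPM.

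Indisulam in parental cells was followed by more rises than falls among intronless genes. Of the 115 members 49 rose and 14 fell, against a background of 31.6% of all tested genes called higher and 26.6% called lower (58.2% in either direction). The median change of the members was 0.10 on the log2 scale and that of all genes 0.01. Changes were small: 1 member was called past 1 log2 unit, IFNE, which fell, against 6.33% of all genes and 1.22% of the 10367 autosomal protein-coding genes with introns and a mean of 1 CPM or more. IFNE is a member through the parental untreated libraries, so its fall is a description. Of those genes with introns 44.4% were called higher and 26.1% lower. Scaling by library totals alone, which moves the median of all genes by -0.07, gave 32 higher and 22 lower, and 2 other gene filters under TMM gave 33 higher and 21 lower. Without parental untreated replicate 1, or without parental indisulam replicate 2, 8 members were called lower.

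Among protein-coding genes with a mean of 1 CPM or more, falls in parental cells were less frequent the fewer exons a gene had. They made up 12.2% of genes with 1 exon, 15.8% with 2 to 3, 19.7% with 4 to 8, 28.6% with 9 to 15, 34.2% with 16 to 30 and 34.5% with over 30 exons. Rises made up 42.6%, 44.4%, 49.96%, 42.1%, 41.2% and 33.9% of the same classes, so intronless genes stood apart from the others by few falls more than by many rises, and close to genes with 2 to 3 exons in both. Under library totals alone the share of falls was 19.1% for 1 exon and 41.9% for over 30 exons, and with an offset for GC content and length it was 9.57% and 43.5%. The classes also differed in other ways: median GC content was 54.7% for intronless genes and 46.9% for genes with over 30 exons, transcript length 2783 and 7619 bases, and mean level 18.4 and 68.7 CPM. These shares are a description, since no test across genes was made.

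The resistant line on the drug showed no such order. There 28 members rose and 38 fell, against 24.9% and 25.8% of all genes (50.7% in either direction), with a median of -0.02. Falls made up 33.0% of intronless genes, 31.7% of genes with 2 to 3 exons and 35.7% of those with over 30. CLDN3 was the 1 member called past 1 log2 unit (background 5.2%, and 1.72% of genes with introns at 1 CPM or more). Library totals alone gave 36 rises and 30 falls and a median of 0.02. Of the 49 members that rose in parental cells, 15 also rose in resistant cells, 10 fell and 24 were not called. Of the 14 that fell, 9 also fell, 2 rose and 3 were not called. The same overlap over all genes is not given here, so these counts describe the members only.

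**Figure D1:**
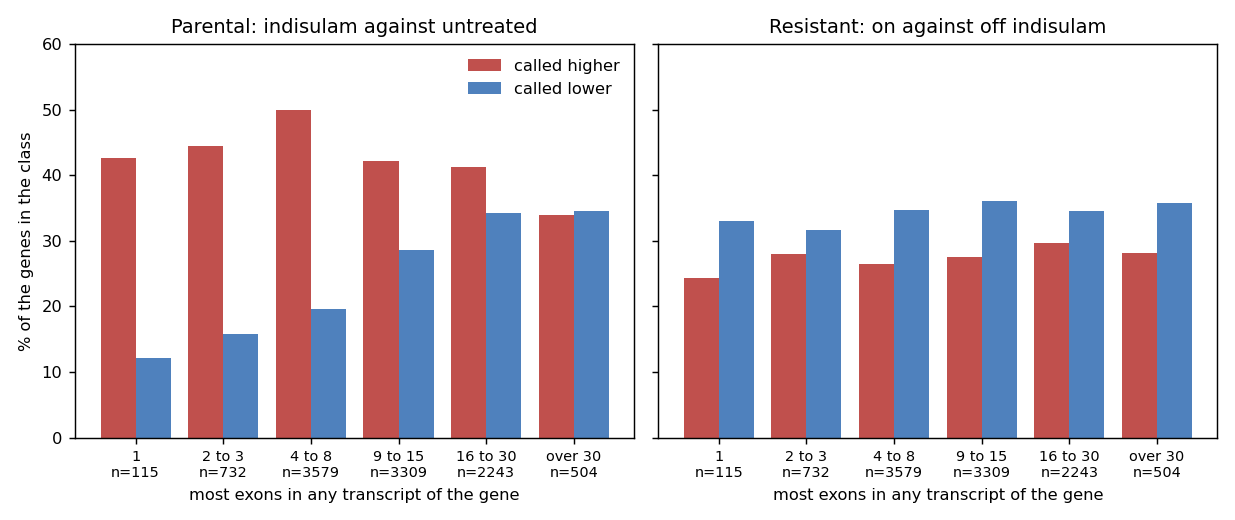
Share of autosomal protein-coding genes with a mean of at least 1 CPM called higher (red) or lower (blue) on indisulam, in % of the genes of each class of largest exon number per transcript, for parental (left) and resistant cells (right). In parental cells called falls go from 12.2% of intronless genes to 34.5% of genes with over 30 exons, and in resistant cells from 33.0% to 35.7%.

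The difference between the drug responses (resistant minus parental) was tested as an interaction. It was called lower for 52 members and higher for 12, against 27.5% and 22.7% of all genes (50.1% in either direction), with a median of -0.14 for members and 0.01 for all genes, and 1 in each direction was past 1 log2 unit (7.78%), IFNE higher and ARL14 lower. More members were called lower than higher under each scaling, but the size of the excess depended on it: library totals alone, which move the median of all genes by 0.12, gave 28 lower and 24 higher, a filter at a mean of 1 CPM 38 and 21, and a fit to autosomal protein-coding genes alone 41 and 19. Genes with introns also had more lower than higher calls: of the 10367 autosomal protein-coding genes with introns and a mean of 1 CPM or more, 40.3% were called lower and 21.3% higher, with a median of -0.08, and 2.62% were past 1 log2 unit. Between the lines without drug, 42 members were higher and 46 lower in resistant cells (background 30.3% and 29.9%, 60.1% in either direction), with a median of -0.05, and 8 were higher and 3 lower by over 1 log2 unit (11% of all genes in either direction and 6.4% of genes with introns at 1 CPM or more). The 8 include NOG and TMEM158, which are members through the resistant libraries alone. On the drug, 37 were higher and 58 lower (34.6% and 34.9%, 69.5% in either direction), with a median of -0.13, and 5 were higher and 1 lower by over 1 log2 unit (14.8%). Genes with introns at 1 CPM or more were near these shares on the drug, with 33.7% higher, 46.8% lower and 8.22% past 1 log2 unit. With the GC and length offset the members' counts on the drug became 26 higher and 66 lower. The comparisons share libraries: 28 members were higher and 40 lower in the resistant line both off and on the drug, 4 were higher off and lower on it, and 3 the reverse. This overlap, too, is not given over all genes.

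**Figure D2:**
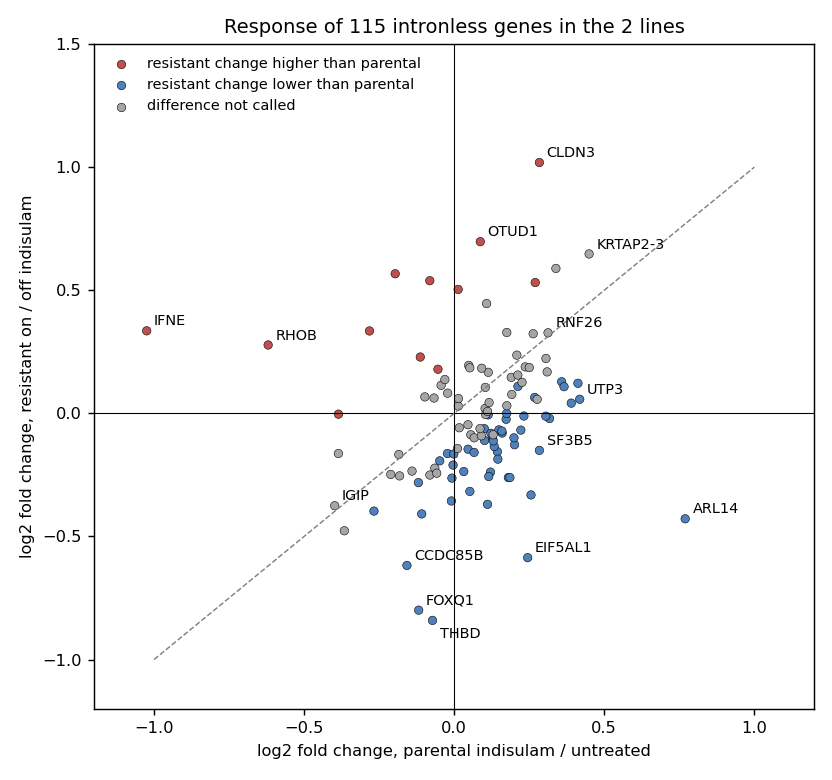
Log2 fold change of each of the 115 intronless genes on indisulam in parental cells (horizontal) and resistant cells (vertical), each point a gene, coloured by the call on the difference between the lines, with the dashed line marking equal change. IFNE and RHOB lie to the left with falls in parental cells, CLDN3 at the top with 1.02 in resistant cells, and THBD and FOXQ1 at the bottom with -0.84 and -0.80.

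Transcription factors and cofactors made up 15 members. Without drug 8 of them were higher and 4 lower in resistant cells, and 3 of the former (SOX4, FOXQ1 and CEBPB) and 1 of the latter (CITED4) were past 1 log2 unit. The counts of this and the other role groups are small and are to be read beside the shares of all genes, which were 31.6% higher and 26.6% lower for the parental response, 24.9% and 25.8% for the resistant response and 30.3% and 29.9% between the lines without drug. These shares were 34.6% and 34.9% between the lines on the drug and 22.7% and 27.5% for the difference of responses. SOX4, a SOX factor of embryonic and epithelial progenitor cells, was at 5.54 and 5.76 CPM without and 5.97 and 5.72 with indisulam in the parental libraries, and 21.0 and 21.8 off and 24.5 and 24.4 on the drug in the resistant ones. All 4 resistant libraries lay above all 4 parental ones. The difference was 1.92 ± 0.05 (SE) log2 units without drug (adjusted p = 1.02e-19) and 2.06 ± 0.05 on it, and the drug raised SOX4 in resistant cells by 0.19 ± 0.04 (adjusted p = 0.000789).

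FOXQ1, a forkhead factor of epithelial cells, had levels of 19.4 and 19.4 CPM in untreated and 18.9 and 16.9 in treated parental cells, against 46.7 and 50.8 off and 27.5 and 28.4 on the drug in resistant cells. It was highest in resistant cells off the drug, and the resistant libraries on the drug stayed above the parental ones. The gap between untreated lines was 1.33 ± 0.05 log2 units, and on the drug FOXQ1 fell in resistant cells by 0.80 ± 0.05 (adjusted p = 1.41e-11), whereas its parental change was -0.12 ± 0.05 (adjusted p = 0.0569). CEBPB, a bZIP factor of acute-phase and stress responses, was at 17.2 and 16.8 CPM without and 18.6 and 19.3 with indisulam in the parental libraries, and 35.6 and 39.4 off and 35.2 and 36.0 on the drug in the resistant ones. Its levels formed a parental and a resistant tier, 1.14 ± 0.05 log2 units apart without drug (adjusted p = 2.87e-16).

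SOX12, of the same subgroup of SOX factors as SOX4, was 0.61 ± 0.05 higher and the forkhead factor FOXC1 0.21 lower in resistant than parental untreated cells. CITED4, a coactivator of CREB-binding protein partners, was at 2.83 and 2.45 CPM in parental and 1.15 and 1.08 in resistant untreated libraries, 1.24 ± 0.15 log2 units lower. CITED4 was named after its values were seen. JUNB, an immediate-early AP-1 subunit, had levels from 65.4 to 77.3 CPM with overlapping groups and was called in none of the 5 comparisons. IER5, another early-response gene, rose in resistant cells by 0.18 ± 0.04 and had a parental change of -0.05 (adjusted p = 0.303). Its relative IER5L fell in parental cells by 0.39 ± 0.08 (adjusted p = 0.00024), from 6.67 and 5.89 to 4.91 and 4.71 CPM, with no overlap. For comparison, of 24 immediate-early and bZIP genes that do have introns, 16 rose and 1 fell on the drug in resistant cells, with a median of 0.30, and 12 rose and 4 fell in parental cells, with a median of 0.13. Of the 5 intronless members on the like list, 1 rose and 0 fell in resistant cells, and 2 rose and 1 fell in parental cells. The 2 parental rises, CEBPB and CEBPD, were not called under library totals alone (adjusted p = 0.119 and 0.163 in edgeR's test) or the 2 other gene filters. Counts of the 24 genes with introns under these settings are not given here. Of all genes 24.9% rose and 25.8% fell in resistant cells, and 31.6% and 26.6% in parental cells.

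Signalling genes made up 15 members, of which 9 were higher and 3 lower in resistant than parental cells without drug, against 30.3% and 29.9% of all genes. The 9 include NOG and TMEM158, which are members through the resistant libraries alone, so their part in this count follows from the selection. NOG, the secreted inhibitor noggin that binds bone morphogenetic proteins, differed most of all members, and it was named after its values were seen because its mean lies under the 5 CPM asked of named genes. It stood at 0.448 and 0.505 CPM in untreated and 0.587 and 0.594 in treated parental cells, against 8.30 and 8.88 off and 9.85 and 9.47 on the drug in resistant cells. The groups of the lines were far apart, by 4.17 ± 0.11 log2 units without drug and 4.03 ± 0.11 on it. NOG is a member through the resistant libraries alone, so these differences are a description.

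RHOB, an endosomal small GTPase whose short-lived message responds to stress, moved in opposite directions in the lines. It fell in parental cells from 14.1 and 13.8 to 9.39 and 8.75 CPM, by 0.62 ± 0.05 log2 units (adjusted p = 1.05e-09), and rose in resistant cells from 20.5 and 19.6 to 23.9 and 24.7 CPM, by 0.28 ± 0.05 (adjusted p = 2.19e-05). None of the 4 groups overlapped, and the responses differed by 0.90 ± 0.07. Of its relatives with introns, RHOA changed by 0.12 and RHOC by 0.03 in parental cells, while RHOD changed by -0.88.

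The frizzled receptors of Wnt ligands had 3 members, all higher on the drug in parental cells, although the call of FZD1 was lost under library totals alone. FZD7 rose from 10.9 and 10.7 to 14.9 and 14.0 CPM there (0.41 ± 0.06, adjusted p = 9.97e-07), and its resistant libraries, at 10.8 and 11.6 off and 11.6 and 12.7 CPM on the drug, were not called (0.12 ± 0.06, adjusted p = 0.0918). FZD2 rose in both lines, from 10.4 and 10.0 to 12.7 and 12.0 CPM in parental and from 15.02 and 15.8 to 22.2 and 22.3 CPM in resistant cells, by 0.27 ± 0.05 and 0.53 ± 0.05. FZD1 rose by 0.13 ± 0.05 in parental cells and was 0.39 ± 0.05 lower in resistant than parental cells without drug. Among 7 tested frizzled and claudin genes with introns, 1 rose and 3 fell in parental cells and 4 rose and 3 fell in resistant cells. Of all genes 31.6% rose and 26.6% fell in parental cells, and 24.9% and 25.8% in resistant cells.

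Other signalling members were scattered. RRAGA, a Rag GTPase of amino acid signalling to mTORC1, rose by 0.23 ± 0.03 in parental cells and was 0.40 ± 0.04 lower in resistant than parental cells without drug. ARL14, a small GTPase of the ARF family, stood at 0.977 and 0.767 CPM without and 1.60 and 1.38 with indisulam in the parental libraries, and 2.83 and 2.63 off and 1.90 and 2.14 on the drug in the resistant ones. It rose on the drug in parental cells by 0.77 ± 0.15 and fell in resistant cells by 0.43 ± 0.13, with no overlap between any 2 groups. IFNE, the epithelial type I interferon epsilon, was at 2.09 and 2.21 CPM in untreated and 1.01 and 1.10 in treated parental cells, against 0.621 and 0.754 off and 0.905 and 0.832 on the drug in resistant cells. Its parental change was -1.02 ± 0.14, given as a description since the untreated libraries brought it over the level for members, and it lies inside the noncoding gene MIR31HG on the same strand, so its reads may belong to either. ARL14 was also named after its values were seen.

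**Figure D3:**
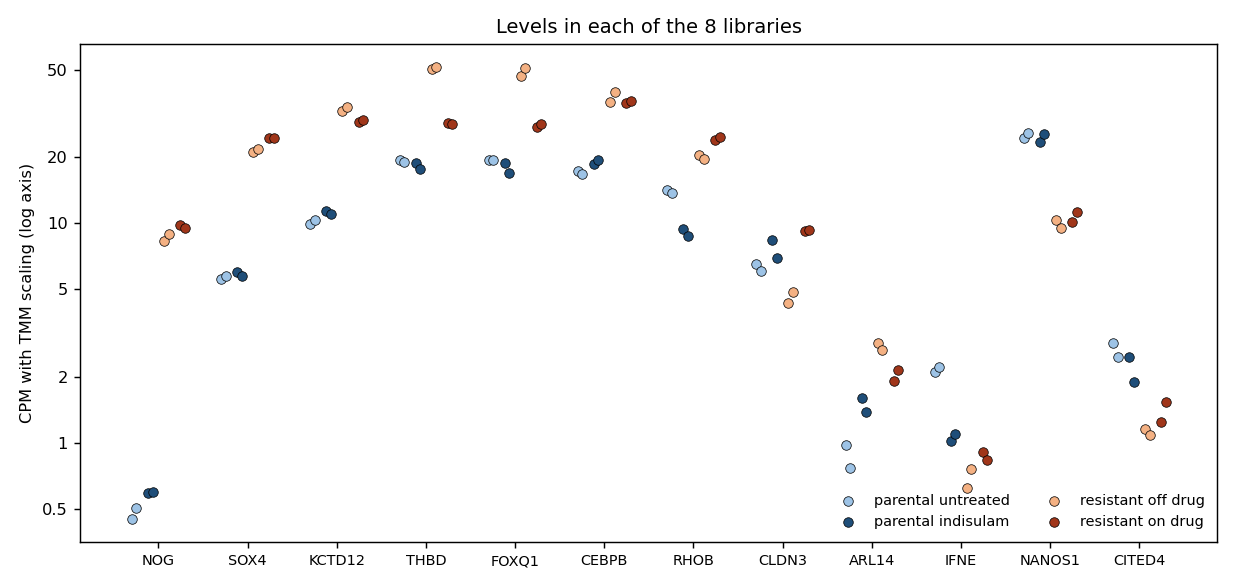
Level in each of the 8 libraries of 12 intronless genes, in CPM with TMM scaling on a log axis, 2 points per group in light and dark blue for parental cells without and with indisulam and in orange and brown for resistant cells off and on it. NOG, SOX4, KCTD12 and CEBPB form a parental and a higher resistant tier, NANOS1 and CITED4 the reverse, and THBD and FOXQ1 are highest in resistant cells off the drug.

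The group of junction and cell surface genes held 6 members, of which 4 rose and none fell in parental cells on the drug. These counts became 3 and 2 under library totals alone. The group includes KRTAP2-3, a keratin-associated protein whose values are uncertain. Of the 5 claudins and other junction or surface proteins in it, 3 rose and 0 fell in parental cells. CLDN3, a sealing claudin of tight junctions, stood at 6.52 and 6.08 CPM without and 8.41 and 6.95 with indisulam in the parental libraries, and 4.32 and 4.83 off and 9.19 and 9.29 on the drug in the resistant ones. Its rise in resistant cells was 1.02 ± 0.09 log2 units (adjusted p = 3.66e-09), and it exceeded the parental rise of 0.28 ± 0.08 by 0.73 ± 0.12. CLDN9 was higher in resistant than parental cells without drug by 0.31 and CLDN23 by 0.33, whereas neither was called on the drug in resistant cells. THBD, the anticoagulant surface receptor thrombomodulin, had 19.3 and 19.1 CPM in untreated and 18.8 and 17.7 in treated parental cells, against 50.5 and 51.7 off and 28.6 and 28.4 on the drug in resistant cells. Like FOXQ1 it peaked in resistant cells off the drug, 1.41 ± 0.04 above parental cells, and fell there on the drug by 0.84 ± 0.04 (adjusted p = 8.83e-15), whereas its parental change was -0.07 ± 0.04 (adjusted p = 0.149).

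KRTAP2-3, a keratin-associated protein with near-identical neighbours, rose in both lines, by 0.45 ± 0.07 and 0.65 ± 0.08, and was 0.92 ± 0.08 lower in resistant than parental cells without drug.

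Of the 17 genes of RNA processing and translation, 6 rose and none fell in parental cells, a share of rises near the 31.6% of all genes. In resistant cells on the drug 2 rose and 7 fell, the difference between the responses was called lower for 11 and higher for none, and on the drug 12 were lower and 3 higher in resistant than parental cells. Under library totals alone these comparisons gave 6 rises and 1 fall, 5 rises and 7 falls, 1 higher and 5 lower, and 3 higher and 10 lower. Under TMM, 27.5% of all genes were called lower for the difference and 34.9% between the lines on the drug. For genes with introns at 1 CPM or more these shares were 40.3% and 46.8%. SF3B5 was at 54.1 and 56.2 CPM without and 66.0 and 68.3 with indisulam in the parental libraries, and 50.2 and 47.8 off and 44.8 and 43.6 on the drug in the resistant ones. It rose in parental cells by 0.28 ± 0.03 (adjusted p = 2.33e-07) and fell in resistant cells by 0.15 ± 0.04 (adjusted p = 0.00152), and none of the 4 groups overlapped. UTP3, a factor of small ribosomal subunit assembly, had the largest rise of the group, from 52.7 and 51.3 to 68.9 and 70.0 CPM in parental cells (0.42 ± 0.04, adjusted p = 8.86e-10). Its resistant libraries were at 42.0 and 41.7 CPM off and 41.7 and 45.2 on the drug, overlapping and not called.

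PCBP1, a poly(C)-binding regulator of splicing, stability and translation, rose in both lines, from 344 and 344 to 404 and 394 CPM in parental cells (0.21 ± 0.03) and from 322 and 316 to 347 and 341 CPM in resistant cells (0.11 ± 0.03). HNRNPA0, an hnRNP that binds AU-rich messages, rose from 249 and 251 to 306 and 296 CPM in parental cells (0.27 ± 0.03), and in resistant cells its 227 and 230 CPM off the drug stood beside 241 and 237 on it (0.06 ± 0.03, adjusted p = 0.0576). Of its relatives with introns, HNRNPA1 changed by -0.0036 and HNRNPA3 by 0.17 in parental cells. CSTF2T, a cleavage stimulation factor of mRNA 3′ ends, fell in resistant cells from 40.6 and 38.7 to 31.9 and 31.8 CPM (0.32 ± 0.04, adjusted p = 1.52e-07), and it showed no call in parental cells, at 32.9 and 32.8 CPM without and 33.8 and 34.3 with drug. The spliced counterpart CSTF2 changed by -0.28 in resistant cells and by -0.14 in parental cells. RBM15B, an adaptor of the m6A methyltransferase, fell in resistant cells by 0.16 ± 0.03. HEXIM1, an inhibitor of the elongation kinase P-TEFb, rose in both lines, by 0.23 ± 0.03 and 0.13 ± 0.03.

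NANOS1, a translational repressor of germ cells, was at 24.4 and 25.8 CPM in parental untreated and 10.3 and 9.47 in resistant untreated libraries, 1.34 ± 0.06 lower (adjusted p = 2.4e-14), and it was not called on the drug in either line. It overlaps the abundant gene EIF3A on the opposite strand. The retrocopies were low: HNRNPA1L2 ranged from 2.24 to 3.36 CPM and EIF5AL1 from 0.964 to 1.90 CPM, with the resistant untreated replicates of EIF5AL1 as far apart as 1.90 and 1.23.

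Chromatin and genome maintenance genes, 14 members, had 5 rises and 4 falls in parental cells and 3 of each in resistant cells, and under library totals alone 3 rises and 4 falls in parental cells. SFN, a p53 target that holds cell cycle proteins in the cytoplasm, was at 190 and 187 CPM in untreated and 174 and 175 in treated parental cells, against 180 and 177 off and 213 and 205 on the drug in resistant cells. It fell in parental cells by 0.11 ± 0.03 (adjusted p = 0.00158) and rose in resistant cells by 0.23 ± 0.03 (adjusted p = 4.51e-07), and these responses differed by 0.34. With the GC and length offset its parental change turned to 0.07 (adjusted p = 0.0603) and the difference of the responses was 0.07 (adjusted p = 0.223), neither of them called. FANCF, of the Fanconi anaemia core complex, fell in resistant cells from 19.3 and 20.7 to 14.96 and 15.1 CPM (0.41 ± 0.05) and by 0.11 ± 0.04 in parental cells. PGBD4, derived from a piggyBac transposase, fell in parental cells from 7.96 and 8.60 to 6.48 and 6.20 CPM (0.39 ± 0.07), while the resistant libraries lay between 5.70 and 5.82 CPM. TIGD5, derived from a pogo transposase, fell in parental cells by 0.18, a call lost without parental untreated replicate 1, without parental indisulam replicate 2 and with the GC and length offset.

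Genes of the ubiquitin system, 10 members, had 6 rises and no fall in parental cells, and 5 rises under library totals alone, against 31.6% and 26.6% of all genes. RNF26, a ubiquitin ligase of endosome positioning, rose in both lines, from 142 and 140 to 177 and 173 CPM in parental and from 134 and 130 to 168 and 164 CPM in resistant cells, by 0.31 ± 0.03 and 0.33 ± 0.03. Their difference was 0.01 ± 0.04 (adjusted p = 0.794). MAGEF1, a MAGE family ligase partner, rose by 0.26 ± 0.03 and 0.32 ± 0.03, and the cullin-3 adaptor KLHL9 by 0.36 ± 0.03 and 0.13 ± 0.03. OTUD1, a deubiquitinase, stood at 1.27 and 1.28 CPM off and 1.94 and 2.16 on the drug in resistant cells (0.70 ± 0.13), named after its values were seen. KCTD12, a subunit associated with GABA-B receptors, was at 9.95 and 10.3 CPM without and 11.4 and 10.96 with indisulam in the parental libraries, and 32.6 and 34.0 off and 28.8 and 29.6 on the drug in the resistant ones. Its resistant libraries all lay above its parental ones, by 1.72 ± 0.04 without drug (adjusted p = 4.72e-20) and 1.39 ± 0.05 on it. KCTD11, a cullin-3 adaptor, was 0.73 ± 0.05 higher in resistant than parental cells without drug, while FEM1A, a substrate receptor of a cullin-2 ligase, was lower by 0.46 ± 0.03 without drug and by 0.79 ± 0.03 on it.

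Glycosylation genes were 5: the dolichol kinase DOLK, the N-glycan enzyme MGAT2, the fucosyltransferase FUT4, the GPI anchor mannosyltransferase PIGM and the proteoglycan linker galactosyltransferase B3GALT6. In parental cells 3 rose (2, with 1 fall, under library totals alone) and in resistant cells 3 fell on the drug, and the difference was called lower for all 5, and for 2 of the 5 under library totals alone. Under TMM the difference was called lower for 27.5% of all genes and 40.3% of genes with introns at 1 CPM or more. B3GALT6 went from 10.7 and 11.1 to 12.2 and 12.7 CPM in parental and from 15.6 and 15.6 to 12.8 and 13.2 CPM in resistant cells, a rise of 0.19 ± 0.05 and a fall of 0.26 ± 0.05, without overlap between drug and no drug in either line. PIGM fell in resistant cells from 14.4 and 13.2 to 10.4 and 10.9 CPM (0.37 ± 0.06), and its parental change was 0.11 ± 0.05 (adjusted p = 0.068).

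Genes of membrane traffic, cilia and cytoskeleton, 12 members, had 6 rises and 1 fall in parental cells and 4 rises and 7 falls in resistant cells. Under library totals alone these became 2 rises and 1 fall and 4 of each. The tubulin folding cofactor TBCC fell by 0.24 and the Hermansky-Pudlak protein HPS6 fell by 0.21 in resistant cells, and the exocyst subunit EXOC8 rose in both lines (0.19 and 0.15). The 6 metabolic and mitochondrial genes had 4 rises and 1 fall in parental cells, 1 of each under library totals alone, and 1 rise and 2 falls in resistant cells, 2 of each under library totals alone. ADO, a thiol dioxygenase that acts as an oxygen sensor, was at 36.4 and 36.7 CPM in parental and 24.9 and 25.6 in resistant untreated libraries, 0.53 ± 0.04 lower, and PLPP6, a lipid phosphatase, was 0.42 ± 0.06 lower there and 0.79 ± 0.06 lower on the drug.

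Little characterised genes, 15 members, had 6 rises and 4 falls in parental cells and 5 of each in resistant cells (4 of each, and 6 rises and 3 falls, under library totals alone), and 9 of them were lower in resistant than parental cells without drug. C6orf120 was at 24.1 and 24.1 CPM in parental and 16.3 and 15.3 in resistant untreated libraries, 0.61 ± 0.05 lower, and overlaps PHF10 on the opposite strand. CCDC71L fell in both lines, from 74.0 and 73.9 to 62.4 and 60.5 CPM in parental (0.27 ± 0.03) and from 44.03 and 43.7 to 33.2 and 33.4 CPM in resistant cells (0.40 ± 0.03). IGIP, a secreted inducer of IgA production, fell in both, by 0.40 ± 0.08 and 0.38 ± 0.09. SMIM10L1 rose from 31.0 and 32.5 to 41.6 and 40.3 CPM in parental cells (0.37 ± 0.04), and by 0.11 ± 0.04 in resistant cells. CCDC85B, counted with the signalling genes, had levels of 24.6 and 27.3 CPM off and 16.4 and 17.3 CPM on the drug in resistant cells, where it fell by 0.62 ± 0.09 (adjusted p = 0.000704), and its parental libraries overlapped. ENSG00000284976 lies wholly inside an exon of NDOR1 on the same strand and SFT2D3 within WDR33 on the opposite strand, so reads of these genes may not have been told apart.

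**Figure D4:**
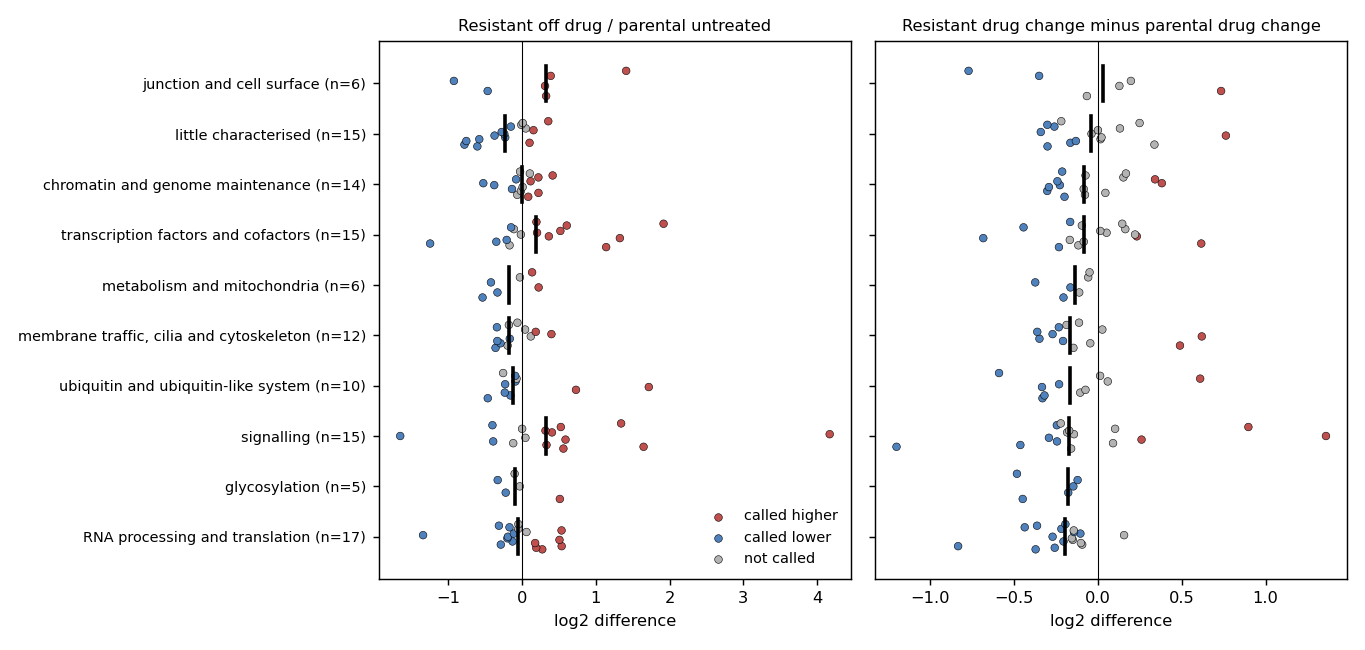
Log2 difference of each intronless gene between resistant and parental cells without drug (left) and between the drug responses, resistant minus parental (right), by role group, red and blue for genes called higher and lower, with a black bar at the median of the group. On the right the 5 glycosylation genes are all blue and 11 of 17 RNA processing and translation genes are blue with none red, counts that fall to 2 and 5 under library totals alone, and on the left NOG lies at 4.17. The difference of responses was called lower for 27.5% of all genes and 40.3% of genes with introns at 1 CPM or more.

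With 2 libraries a group no permutation of a gene's own values can give a two-sided p below 0.333, so the calls rest on the spread shared across genes, with 4 residual degrees of freedom. Small steps pass it: tested against a change of at least 0.5 log2 units, 0 members were called higher and 1 lower in parental cells, 1 and 2 in resistant cells, 10 and 6 between the untreated lines and 12 and 16 between the lines on the drug. No share of all genes under that test is given here, so these counts describe the members only.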

How the data were processed

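RNA of 8 Panc10.05 libraries in 4 groups of 2 was prepared from polyadenylated RNA with a stranded kit. The deposited files hold raw counts of reads per gene. Per the labels and the study's methods the authors trimmed reads, aligned them with HISAT2 2.2.1 to GRCh38 and set duplicate, low mapping quality, ambiguous and unassigned reads apart in 9 lines, which made up 37.9% to 44.9% of all counted reads and were left out of library sizes and tests. Picard and HTSeq are named in the submitters' processing notes, and the annotation and strand setting of the count are not given in the sources used here. Such filters lower the counts of genes with copies or overlapping neighbours.

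Exon numbers, lengths and overlaps came from GENCODE release 44, with 60419 gene identifiers matched. Copies were searched with BLAST 2.17.0 (protein identity of at least 90% over at least 50% of the length, or transcript identity of at least 98% over 150 bases). Counts were fitted with edgeR 4.0.16 (R 4.3.3): filterByExpr, TMM scaling, the robust quasi-likelihood test over 16661 genes with 1 term for each group, 5 contrasts and Benjamini-Hochberg adjustment at 0.05. Of the members 115 passed the filter. The script was tested on simulated counts. The members and lists were chosen with earlier results of these data known, and the role groups were assigned by hand. Named genes were, per contrast, the 5 largest called rises and 5 largest called falls at a mean of 5 CPM or more with libraries that did not overlap and no gene on the same strand, the 5 highest per kb and the top 3 of each role list; others are said to be named after their values were seen or illustrate a group, and genes that the rule picks but the text does not name are not reported here. Alternatives were other scalings, filters, DESeq2 1.42.0, an offset for GC content and length (mgcv 1.9.3), a replicate block, a test against 0.5 log2 units, an adjusted p of 0.01, other member rules (members without a near-identical copy among them) and each library left out.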

Additional observations from a re-analysis of the deposited data

Results flagged for a closer look

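The drug responses of the lines differed, by the interaction test of edgeR with an adjusted p under 0.05, for the 32 genes listed here. They are part of the 49 members named by the rule, and IFNE, another of the 49, was called higher as given above. Of all tested genes 50.1% were called in this comparison. Some of the 49 were named because this difference was large, so the count is raised by that choice and describes these genes only. In resistant cells the change was higher than in parental cells for RHOB (by 0.90 log2 units), CLDN3 (0.73), PGBD4 (0.38), SFN (0.34), FZD2 (0.26) and IER5 (0.23). It was lower for THBD (-0.77), FOXQ1 (-0.68), CCDC85B (-0.46), B3GALT6 (-0.45), SF3B5 (-0.43), PLPP6 (-0.37), UTP3 (-0.36), KCTD12 (-0.33), FEM1A (-0.33), FANCF (-0.30), C6orf120 (-0.30), FZD7 (-0.29), SMIM10L1 (-0.26), CEBPB (-0.23) and ADO (-0.20), and also for PIGM (-0.48), PURB (-0.44), MARS2 (-0.27), FZD1 (-0.24), KLHL9 (-0.23), RRS1 (-0.22), HNRNPA0 (-0.20), THAP11 (-0.16), FUT4 (-0.14), MGAT2 (-0.12) and PCBP1 (-0.10). Scaled by library totals alone, the differences of CCDC85B (adjusted p = 0.076), CEBPB (0.155), FZD7 (0.0893), ADO (0.198), PCBP1 (0.815), HNRNPA0 (0.0596), RRS1 (0.0576), MGAT2 (0.944), THAP11 (0.427), FUT4 (0.71) and FZD1 (0.161) were no longer called, and with the GC and length offset those of SFN (0.223), SMIM10L1 (0.111), HNRNPA0 (0.317), MGAT2 (0.0706), KLHL9 (0.165), FUT4 (0.382) and FZD1 (0.0915) were not. PCBP1's difference turned to 0.01 under library totals alone. The responses compare 18 h of treatment in parental cells with a resistant culture kept on the drug against a week off it.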

How the results depend on the processing

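Medians are in log2 units, in the order parental drug response, resistant drug response, lines without drug, lines on the drug and difference of responses; the main medians were 0.105, -0.0244, -0.0490, -0.129 and -0.144. Under library totals alone they were 0.0384, 0.0243, -0.0766, -0.0416 and -0.0292, with 32 higher and 22 lower in parental cells and 24 higher and 28 lower for the difference. Filtering at a mean of 1 CPM gave 0.0482, 0.00379, -0.0550, -0.0502 and -0.0597, with 21 called higher for the difference, and autosomal protein-coding genes alone gave 0.0519, -0.0119, -0.0730, -0.0874 and -0.0792, with 19 higher. No filter gave 0.0745, -0.0315, -0.0475, -0.104 and -0.121. The GC and length offset gave 0.114, -0.0470, -0.114, -0.216 and -0.167, and with the replicate block added 0.114, -0.0481, -0.113, -0.217 and -0.170. The median of the resistant drug response is near 0 and its sign depended on these choices; the cause was not tested. DESeq2's Wald test called 9 members lower in parental cells, as did an adjusted p under 0.01. Members overlapping no other gene, which are fewer by construction, gave 28 higher and 4 lower in parental cells (median 0.130), 18 and 15 in resistant cells (0.0567), 24 and 23 without drug (0.00158), 24 and 25 on it (-0.0283), and 23 lower for the difference. A canonical transcript with 1 exon as the rule gave 151 members, a resistant median of -0.0110 and 20 higher for the difference. A mean of at least 5 CPM left 93 members. It gave medians of -0.0586 in resistant cells and -0.174 between lines on the drug, and 6 higher for the difference. The sets differ in size, so their counts are not directly comparable with those of the 115 members. Tested against 0.5 log2 units, 0 and 1 were called higher and lower in parental cells, 1 and 2 in resistant cells, 10 and 6 without drug, 12 and 16 on it and 2 and 3 for the difference. The share of all genes under the same test is not given here.

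With each library left out in turn, calls lower in parental cells ranged from 8 to 15, and medians from 0.0940 to 0.118 for the parental response, -0.0539 to -0.0245 for the resistant response, -0.0538 to -0.0152 without drug, -0.163 to -0.106 on it and -0.166 to -0.122 for the difference. The replicate numbers share only a number: deviations from the group means of same-numbered libraries correlated at -0.058 to 0.027. The replicate block gave 49 higher and 14 lower in parental and 25 and 37 in resistant cells, and moved no count of member calls by over 1.5 times. The other scalings and filters kept the direction of every named gene in the comparison that named it. In other comparisons some directions turned, among them SFN's parental fall of 0.11, which became 0.07 under the GC and length offset. Between the lines on the drug, CLDN3 and IER5L were called higher but stood at -0.058 and -0.14 under that offset. RNF26 was called lower there but stood at 0.009 under library totals alone. In all, 32 results for named genes lost their call, 3 of them on leaving out a library. Small counts limit IFNE, ARL14, NOG and TMEM158 in parental cells.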
